A study of Mus musculus with 4 samples.

Results

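The genes described here were 35 genes of cholesterol metabolism, chosen by name, with no value in the rule itself, out of 17419 genes listed in the single-cell transcriptomes of 4 mouse neural stem cell (NSC) lines. They fell into 6 roles. The synthesis pathway had 18 members, of which 7 (*Acat2*, *Hmgcs1*, *Mvk*, *Pmvk*, *Mvd*, *Idi1* and *Fdps*) make and use mevalonate and 11 (*Fdft1*, *Sqle*, *Lss*, *Cyp51*, *Tm7sf2*, *Msmo1*, *Nsdhl*, *Hsd17b7*, *Ebp*, *Sc5d* and *Dhcr7*) build the sterol. Another 7 (*Insig1*, *Insig2*, *Srebf1*, *Srebf2*, *Scap*, *Nr1h2* and *Nr1h3*) are sensors and transcription factors. Sterol carriers inside the cell numbered 3 (*Stard4*, *Npc1* and *Npc2*), efflux and lipoprotein genes 4 (*Abca1*, *Abcg1*, *Pltp* and *Apoe*), and fatty acid synthesis genes under the same transcription factors 3 (*Fasn*, *Scd1* and *Scd2*). The tables of XN4 and CN4 listed all 35 members, that of XN1 34 and that of KN1 33. *Abcg1* was not listed in XN1 and KN1, and *Nr1h3* was not listed in KN1. The tables leave out genes captured in very few cells, so no limit can be set for an unlisted gene.

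The lines were derived from 129/Sv epiblast stem cells and grown with EGF and FGF2 (10 ng/ml each), and with N-2 and B-27 supplements at 0.5 times their usual strength in a medium with 0.004% BSA. XN4 and XN1 also received 10 µM XAV939, a tankyrase inhibitor that lowers Wnt signaling, CN4 received 2 µM CHIR99021, a GSK3 inhibitor that raises it, and KN1 received neither. Per the study's methods, the XAV939 of XN4 came from another supplier than that of XN1, and the latter formed crystals in the medium. Each line was 1 culture in its growing phase, stored in CellCover and sequenced as 1 BD Rhapsody library, in which the polyA RNA of single cells is taken up by barcoded beads. XN4 and CN4 came from derivation experiment 4 and XN1 and KN1 from experiment 1, which cannot be told apart from the other differences between the lines. With 1 library per line, no test between lines was made, and the intervals given here cover no more than counting error. Intervals of levels are taken on reads, which are not molecular identifiers, so they can be too narrow even for that.

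Animal cells make cholesterol from acetyl-CoA through mevalonate, squalene and lanosterol. When membrane sterol is low, Scap carries the membrane-bound transcription factors Srebf1 and Srebf2 to the Golgi, where they are cut and released to activate synthesis genes, and when sterol is high, Insig proteins hold Scap back. Oxidized sterols and late intermediates activate the liver X receptors (Nr1h2 and Nr1h3), which raise efflux genes such as *Abca1* and *Apoe*. Dividing neural progenitors are known to make much of their membrane sterol themselves.

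The synthesis genes are known for promoters in which SREBP factors bind together with NF-Y, at the letters CCAAT, and Sp1, at GGGCGG. The sequence from 250 bases before to 50 bases after the start of transcription was found for 27 of the 35 members in RefSeq's annotation of GRCm38.p6, and a gene counted as holding a motif if any of its promoters did, on either strand. CCAAT was found in 14 of 15 synthesis genes (93.3%), in 7 of 12 other members (58.3%) and in 41.1% of 27025 genes. GGGCGG was found in 14 of 15, 8 of 12 and 38.2%, respectively. Both stood together in 13 of 15 synthesis genes (86.7%) and in 14.5% of all genes. *Acat2* was the synthesis gene without CCAAT, and *Pmvk* the one without GGGCGG. For the sterol regulatory element only the exact letters TCACNCCAC were searched, so other forms of it would be missed. These letters were found in *Hmgcs1* alone among the members with a sequence and in 1.44% of all genes. These promoters were rich in G and C, with a median of 60.8% for synthesis genes and 52.7% for all promoters. The stretches before the start of *Hmgcs1* (plus strand, chr13:119690101-119690350), *Idi1* (plus strand, chr13:8885356-8885605), *Msmo1* (minus strand, chr8:64733579-64733828), *Lss* (plus strand, chr10:76531355-76531604) and *Abca1* (minus strand, chr4:53159896-53160145) are shown 5′ to 3′ on the gene's strand because these genes carry the cell-to-cell results described later. Capitals mark TCACNCCAC, CCAAT and GGGCGG on either strand.
Hmgcs1: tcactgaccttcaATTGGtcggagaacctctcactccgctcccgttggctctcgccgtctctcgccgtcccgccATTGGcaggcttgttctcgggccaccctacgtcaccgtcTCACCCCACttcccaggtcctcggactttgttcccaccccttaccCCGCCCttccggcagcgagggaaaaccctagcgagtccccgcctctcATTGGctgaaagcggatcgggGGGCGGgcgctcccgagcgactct
Idi1: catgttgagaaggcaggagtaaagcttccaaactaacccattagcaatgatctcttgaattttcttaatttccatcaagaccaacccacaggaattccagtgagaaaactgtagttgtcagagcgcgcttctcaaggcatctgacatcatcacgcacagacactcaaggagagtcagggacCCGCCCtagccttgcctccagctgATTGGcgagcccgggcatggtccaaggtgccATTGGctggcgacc
Msmo1: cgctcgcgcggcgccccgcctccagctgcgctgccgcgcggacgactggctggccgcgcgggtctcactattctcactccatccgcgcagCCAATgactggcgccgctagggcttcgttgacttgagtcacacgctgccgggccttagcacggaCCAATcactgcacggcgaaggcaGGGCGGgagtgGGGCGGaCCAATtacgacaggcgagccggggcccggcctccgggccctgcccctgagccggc
Lss: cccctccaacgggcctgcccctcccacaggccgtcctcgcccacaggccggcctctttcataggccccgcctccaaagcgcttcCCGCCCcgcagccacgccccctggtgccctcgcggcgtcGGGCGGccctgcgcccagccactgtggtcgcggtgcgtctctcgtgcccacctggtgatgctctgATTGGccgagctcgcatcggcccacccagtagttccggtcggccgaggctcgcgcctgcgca
Abca1: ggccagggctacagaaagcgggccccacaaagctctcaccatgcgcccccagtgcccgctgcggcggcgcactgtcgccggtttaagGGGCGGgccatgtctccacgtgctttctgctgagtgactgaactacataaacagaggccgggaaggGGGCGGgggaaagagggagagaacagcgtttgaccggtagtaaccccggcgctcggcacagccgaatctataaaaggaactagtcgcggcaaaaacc
The *Hmgcs1* sequence held TCACCCCAC at position -137 from the start, apart from its 4 CCAAT boxes and 3 GGGCGG boxes, of which 1 each lies outside the stretch shown. *Idi1* held 2 CCAAT boxes, *Msmo1* 3 and *Lss* 1, whereas *Abca1* held none, with 2 GGGCGG boxes.

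The normalized tables held 3448 to 3975 cells and 19271688 to 41539513 reads per line, with a median of 4637 to 7796 reads per cell. KN1 stood apart, as the median cell had 833 genes and 766 after every cell was thinned to 3200 reads, compared with 1648 to 1847 after thinning in the other lines. XN4 also stood apart in its markers. Of 10 neural progenitor markers, *Sox1*, *Sox3*, *Hes5* and *Fabp7* were not listed in XN4 and *Sox2* was at 1.25 reads per 1000000 reads of the line (rpm). The other 5 (*Nes*, *Vim*, *Zeb2*, *Notch1* and *Msi1*) were at 10 rpm or more. The 10 markers summed to 1688 rpm, compared with 2373 to 8506 rpm in the other lines. The paper reports *Sox2* and *Zeb2* expression in XN4 by microarray, and that the line formed neurons and glia. In the single-cell data, 7 mesenchymal markers summed to 7488 rpm in XN4, compared with 2.47 to 95.4 rpm in the other lines. The collagen gene *Col3a1* was captured in 97.8% of XN4 cells. XN4 is therefore called by its line name only, and counts of the order of the lines are given with and without it. Defining macrophage markers (*Csf1r*, *C1qa*, *C1qb* and *Tyrobp*) were listed in no line, and the 8 macrophage markers summed to 6.01 to 19 rpm. The lines shared 14 to 21 cell indexes per pair.

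Most members were lowest in KN1, and most were highest in XN1. The level of a gene was its share of all reads of a line in rpm, which compares lines for 1 gene but not genes with each other. Of the 33 members listed in all lines, 23 were lowest in KN1 (37.7% of 10708 genes listed in all lines with at least 10 rpm in the highest), 7 in XN4 (23.1%), 2 in CN4 (13.6%) and 1 in XN1 (25.7%). The highest line was XN1 for 19 (18.5%), CN4 for 9 (23.4%), XN4 for 3 (26.3%) and KN1 for 2 (31.8%). Without XN4, 28 of 33 were lowest in KN1 (45.3%), and 20 were highest in XN1 (28.5%), 11 in CN4 (32.0%) and 2 in KN1 (39.5%). When the share of cells with at least 1 read after thinning was compared in place of the level, 32 of 33 were lowest in KN1, as were 73.7% of all genes. Fewer genes per cell were captured there in general. The highest line exceeded the lowest by 1.29 to 35.6-fold, with a median of 2.58-fold, near the 2.63-fold of all genes, and by more than 10-fold for 3 members (12.5% of all genes), all efflux genes. Without XN4 the folds ran from 1.04 to 35.6 with a median of 2.42 (2.21 for all genes). The summed synthesis genes reached 2391 rpm in XN4, 4204 rpm in XN1, 1525 rpm in KN1 and 3802 rpm in CN4. A KN1 cell that captured a member had more of its reads, with a median over members of 5.51 reads per capturing cell, compared with 3.11 in XN4, 1.67 in XN1 and 1.95 in CN4.

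**Figure D1:**
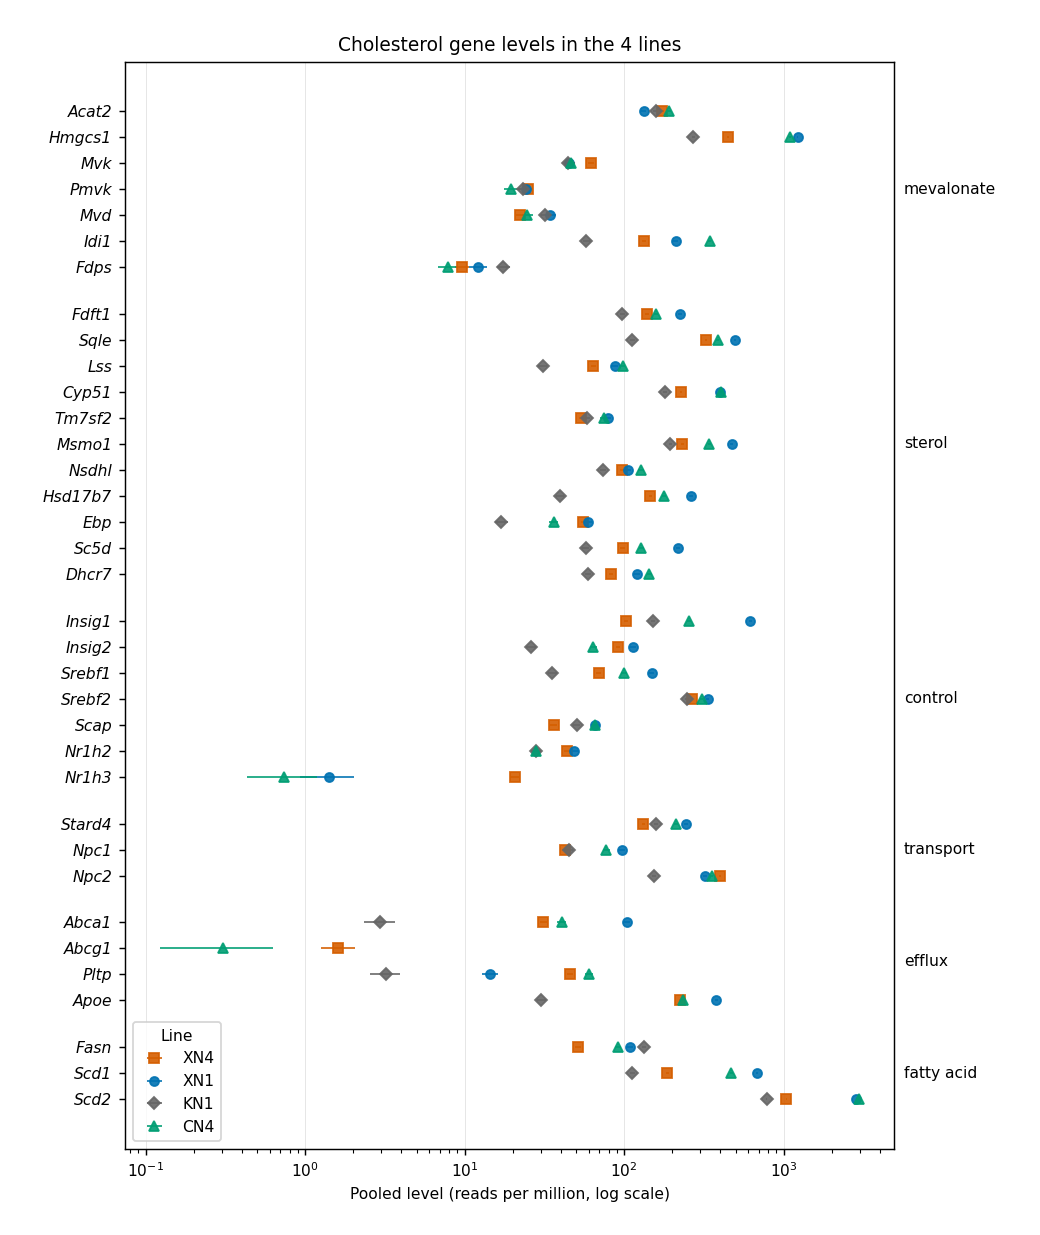
Level of each member in each line, in rpm on a log axis, grouped by role, with 95% exact Poisson intervals of the read count as bars (often smaller than the symbol). KN1 lies far to the left for *Abca1*, *Pltp* and *Apoe* (2.94, 3.19 and 30.2 rpm), whereas *Mvk*, *Pmvk* and *Srebf2* lie close together in the 4 lines.

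In the mevalonate steps, *Hmgcs1*, which condenses acetyl-CoA units into the precursor of mevalonate, was at 445 rpm in XN4, 1222 rpm in XN1, 272 rpm in KN1 and 1099 rpm in CN4. The lines formed 2 levels, with XN1 and CN4 far above XN4 and KN1, and the largest fold was 4.5. Its transcripts were captured in 94.6% of XN1 cells (exact binomial interval 93.8 to 95.3%) and 92.6% of CN4 cells (91.7 to 93.5%), but in 61.6% of XN4 cells (60.0 to 63.1%) and 25.2% of KN1 cells (23.9 to 26.6%). *Idi1*, the isomerase of the isoprene units, was at 133 rpm in XN4, 210 rpm in XN1, 58.0 rpm in KN1 and 343 rpm in CN4, a 5.92-fold range led by CN4. *Mvd*, a decarboxylase, was at 22.2 rpm in XN4, 34.5 rpm in XN1, 32.1 rpm in KN1 and 24.8 rpm in CN4, and the intervals of XN1 and KN1 overlapped. By the share of thinned cells KN1 was instead the lowest line for *Mvd*, at 4.15%, with 9.40% in XN1, 6.68% in CN4 and 5.41% in XN4. *Fdps*, which joins isoprene units to farnesyl diphosphate, was highest in KN1 by level, as *Fasn* was, at 9.61 rpm in XN4, 12.2 rpm in XN1, 17.5 rpm in KN1 and 7.89 rpm in CN4. By the share of thinned cells it was highest in XN1 (3.48%) and lowest in KN1 (2.06%). *Fdps* has near-identical copies elsewhere in the mouse genome, so its count is uncertain. The other mevalonate genes, *Acat2* (a thiolase), *Mvk* and *Pmvk* (kinases), varied by 1.29 to 1.44-fold, between 133 and 191 rpm for *Acat2*, 44.7 and 61.8 rpm for *Mvk* and 19.4 and 25.1 rpm for *Pmvk*.

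Among the 11 genes that build the sterol, 10 were lowest in KN1 by level, as were 37.7% of all genes. *Hsd17b7*, a reductase that acts while the methyl groups are removed from the sterol, was at 146 rpm in XN4, 261 rpm in XN1, 39.8 rpm in KN1 and 178 rpm in CN4, a 6.56-fold range. *Sqle*, the oxygenase that commits squalene to sterols, was at 327 rpm in XN4, 495 rpm in XN1, 113 rpm in KN1 and 385 rpm in CN4, a 4.40-fold range. KN1 was lower than each other line for both genes. *Sc5d*, a sterol desaturase, was at 97.7 rpm in XN4, 218 rpm in XN1, 57.5 rpm in KN1 and 128 rpm in CN4. *Ebp*, a sterol isomerase, was at 55.6 rpm in XN4, 59.1 rpm in XN1, 17.0 rpm in KN1 and 36.1 rpm in CN4. XN1 was highest for *Sc5d*, whereas the intervals of XN4 and XN1 overlapped for *Ebp*. The other 7 sterol genes were *Fdft1* (squalene synthase), *Lss* (lanosterol synthase), *Cyp51* and *Msmo1* (which oxidize methyl groups of the sterol), *Nsdhl* (a sterol dehydrogenase), *Tm7sf2* (a sterol reductase) and *Dhcr7* (a reductase of the last steps). Their largest folds lay between 1.46 for *Tm7sf2* and 3.18 for *Lss*, and *Tm7sf2* was the gene lowest in XN4, at 53.9 rpm beside 58.1 rpm in KN1.

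Among the sensors and factors, *Insig1*, the retention protein that SREBP itself induces, was at 102 rpm in XN4, 619 rpm in XN1, 152 rpm in KN1 and 255 rpm in CN4. XN1 stood 2.43-fold above CN4 and 6.04-fold above XN4, and *Insig1* was one of 2 members with XN1 more than 2-fold above CN4, with *Abca1*. *Insig2*, its paralog, was at 91.3 rpm in XN4, 113 rpm in XN1, 26.2 rpm in KN1 and 64.2 rpm in CN4, with KN1 lowest. *Srebf1* was at 69 rpm in XN4, 149 rpm in XN1, 35.5 rpm in KN1 and 100 rpm in CN4, a 4.20-fold range. *Nr1h3*, the inducible liver X receptor, was at 20.6 rpm in XN4, 1.40 rpm in XN1 and 0.741 rpm in CN4 and was not listed in KN1, so that it was seen mainly in XN4, in 11.6% of the cells. The ubiquitous liver X receptor *Nr1h2* was at 27.9 to 48.3 rpm, and *Srebf2* and *Scap* varied by less than 2-fold, between 247 and 333 rpm and between 36.2 and 65.7 rpm.

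The genes that move sterol inside the cell varied by 1.85 to 2.59-fold. *Npc2*, which binds cholesterol in the lysosome, was at 401 rpm in XN4, 321 rpm in XN1, 155 rpm in KN1 and 354 rpm in CN4. *Npc1*, the membrane protein that takes cholesterol over from it, was at 42.5 rpm in XN4, 96.8 rpm in XN1, 45.4 rpm in KN1 and 77.4 rpm in CN4. *Stard4*, a cytosolic sterol carrier, was at 132 rpm in XN4, 245 rpm in XN1, 158 rpm in KN1 and 211 rpm in CN4. By level, XN4 was the lowest line for *Npc1* and *Stard4* but the highest for *Npc2*, whereas by the share of thinned cells KN1 was the lowest for all 3 and CN4 the highest for *Npc2*.

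Among the members listed in all lines, efflux genes had the 3 largest folds. *Abca1*, the transporter that passes cholesterol to apolipoproteins, was at 31.2 rpm in XN4 (exact Poisson interval 29.5 to 32.9), 105 rpm in XN1 (100 to 109), 2.94 rpm in KN1 (2.33 to 3.65) and 40.5 rpm in CN4 (37.9 to 43.2). It was captured in 8.81%, 26.3%, 0.679% and 11.8% of the cells, respectively, and in KN1 in 27 cells with 81 reads. XN1 was 35.6-fold above KN1 and 2.58-fold above CN4. *Pltp*, which transfers phospholipid between lipoproteins, was at 45.5 rpm in XN4, 14.5 rpm in XN1, 3.19 rpm in KN1 and 60.2 rpm in CN4, so that XN1, the highest line for *Abca1*, was 4.16-fold below CN4. *Apoe*, the main apolipoprotein of the brain, was at 224 rpm in XN4, 378 rpm in XN1, 30.2 rpm in KN1 and 235 rpm in CN4, a 12.5-fold range. *Abcg1*, a second sterol transporter, was at 1.61 rpm in XN4 (67 reads) and 0.305 rpm in CN4 (7 reads). KN1 was below every other line for *Abca1*, *Pltp* and *Apoe*, also without XN4.

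The fatty acid genes did not move as a group. *Scd1* and *Scd2*, desaturases that make monounsaturated fatty acids, had the order of *Hmgcs1* in part. *Scd1* was at 186 rpm in XN4, 683 rpm in XN1, 112 rpm in KN1 and 470 rpm in CN4. *Scd2* was at 1040 rpm in XN4, 2858 rpm in XN1, 780 rpm in KN1 and 2961 rpm in CN4. In both, XN1 and CN4 were well above XN4 and KN1. *Fasn*, fatty acid synthase, was instead highest in KN1 by level, at 133 rpm, with 51.5 rpm in XN4, 109 rpm in XN1 and 90.9 rpm in CN4, but by the share of thinned cells it was highest in XN1 (27.1%), with 16.3% in KN1 and 12.7% in XN4.

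The 6 pairs of lines were compared over all genes listed in both tables with at least 10 rpm in the higher line, so that the members could be read against other genes. XN1 was at least 2-fold above KN1 for 21 of 33 members and 2-fold below for 0, while 23.5% of all genes tested were higher and 23.7% lower by that fold. CN4 was above KN1 for 17 of 33 members (22.4% of all genes) and below for 1, *Fdps* (20.0%). XN4 was above KN1 for 10 of 33 (22.8%) and below for 1, *Fasn* (20.4%). These 3 comparisons share the KN1 library. XN4 was below XN1 for 10 of 34 members (13.2%), including *Hmgcs1* (2.75-fold), *Insig1* (6.04-fold) and *Scd1* (3.67-fold), and above for 2 (16.0%), *Nr1h3* (14.7-fold) and *Pltp* (3.14-fold). It was below CN4 for 5 of 33 (14.2%), namely *Hmgcs1*, *Idi1*, *Insig1*, *Scd1* and *Scd2*, and above for 1 (16.2%), *Nr1h3*. By level, XN1 and CN4 differed least among the 6 pairs, with 2 of 33 members higher in XN1 (8.14%) and 1 lower (6.97%). The counts depend on how the level is taken: over the share of thinned cells, with the lines then scaled to each other by the median ratio of all genes, 15 members were above KN1 in XN1, 12 in CN4 and 6 in XN4, with 20.8%, 16.7% and 18.7% of all genes, 5 of 34 were lower in XN4 than XN1 (13.4%), and 1 of 33 was lower in XN4 than CN4 (13.6%). On that scale 1 member was also higher in XN4 than CN4 (15.5%), and XN1 against CN4 likewise had 1 higher (7.97%) and 1 lower (5.20%). Without that scaling the median of all genes moved by a log2 value of 1.15 to 1.35 against KN1.

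**Figure D2:**
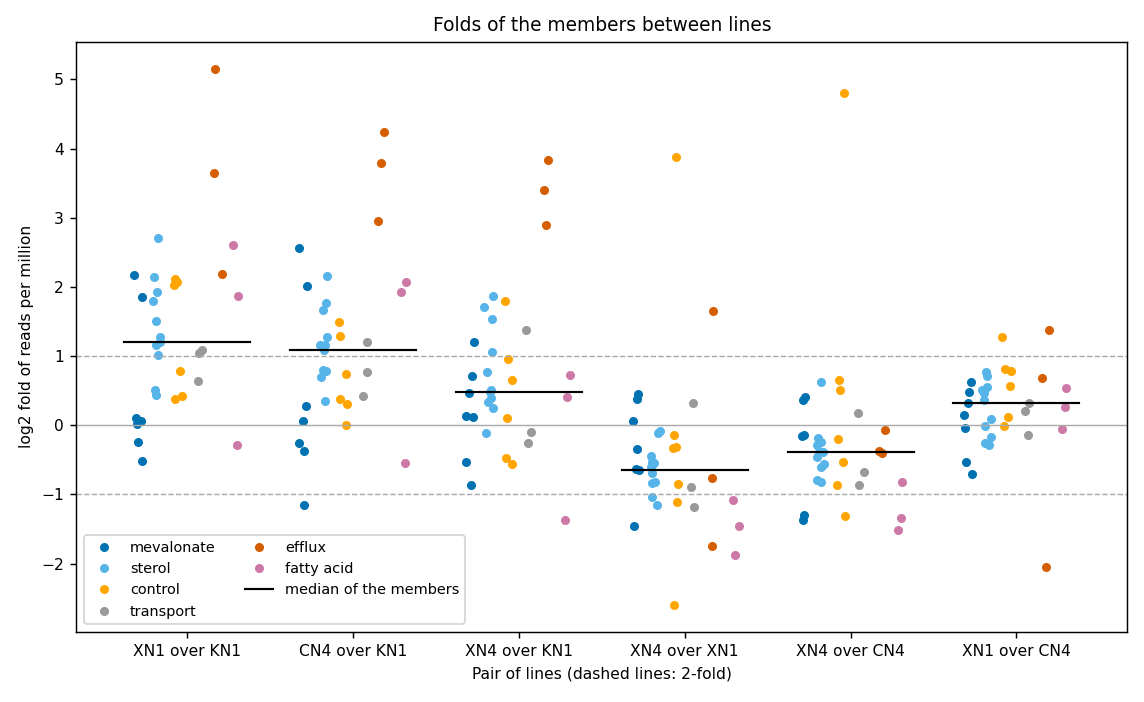
Log2 fold of each member's rpm for the 6 pairs of lines, colored by role, with the median of the members as a black line and 2-fold as dashed lines. The medians lie at 1.2 for XN1 over KN1, 1.09 for CN4 over KN1, 0.48 for XN4 over KN1, -0.64 for XN4 over XN1, -0.39 for XN4 over CN4 and 0.31 for XN1 over CN4, where those of all genes lie between -0.11 and 0.12.

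Whether the members varied together from cell to cell was asked within each line. For every pair of genes, the number of cells with at least 1 read of both was divided by the number expected if the genes were independent within 20 strata of cells with like numbers of genes detected. A ratio above 1 means that the genes shared cells more often than depth accounts for. In XN4, the synthesis genes shared cells: of 153 pairs of synthesis genes, the exact interval lay above 1 for 146 (0.967% of all pairs of genes) and below 1 for 0 (0.832%), with a median ratio of 1.17 and a range of 1.06 to 1.88. The highest pair was *Mvd* and *Fdps*, found in 80 cells where 42.5 were expected (1.88, interval 1.49 to 2.34). The count of *Fdps* is uncertain, as given above. The median of the pairs of synthesis genes was 1.05 in CN4, 1.03 in XN1 and 1.11 in KN1. Intervals above 1 numbered 25 of 153 in CN4 (0.973% of all pairs), 5 in XN1 (1.09%) and 19 in KN1 (1.18%). Without strata, a ratio cannot pass 1 over the share of cells with the gene. For *Hmgcs1* this limit is 1.06 in XN1 and 1.08 in CN4 but 1.62 in XN4 and 3.96 in KN1. Within strata it differs from gene to gene, so these values are approximate. Neither the medians of the lines nor their numbers of intervals above 1 can therefore be set against each other. Pairs of a synthesis and an efflux gene went the other way in XN4, with a median of 0.89 and 34 of 54 intervals below 1, compared with the 0.832% of all pairs. Of these 34, 18 were pairs with *Abca1*. The same pairs had 4 of 54 intervals below 1 in XN1 (0.982%), all with *Abca1*, and 0 in CN4 (0.810%). With *Abca1* alone the background is higher, as 6.69% of all genes in XN4, 9.11% in XN1 and 8.50% in CN4 had an interval below 1. In KN1 18 pairs of a synthesis and an efflux gene, all with *Apoe*, had a median of 0.978, with 1 interval below 1 (0.791%) and 2 above (1.18%). Efflux genes (*Abca1*, *Pltp* and *Apoe*) shared cells in all 3 lines where they could be read, with medians of 1.25 in XN4, 1.37 in XN1 and 1.53 in CN4 and intervals above 1 for 2, 3 and 3 of the 3 pairs. With *Abca1*, the share of all genes with an interval above 1 was 7.70% in XN4, 8.89% in XN1 and 10.2% in CN4.

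**Figure D3:**
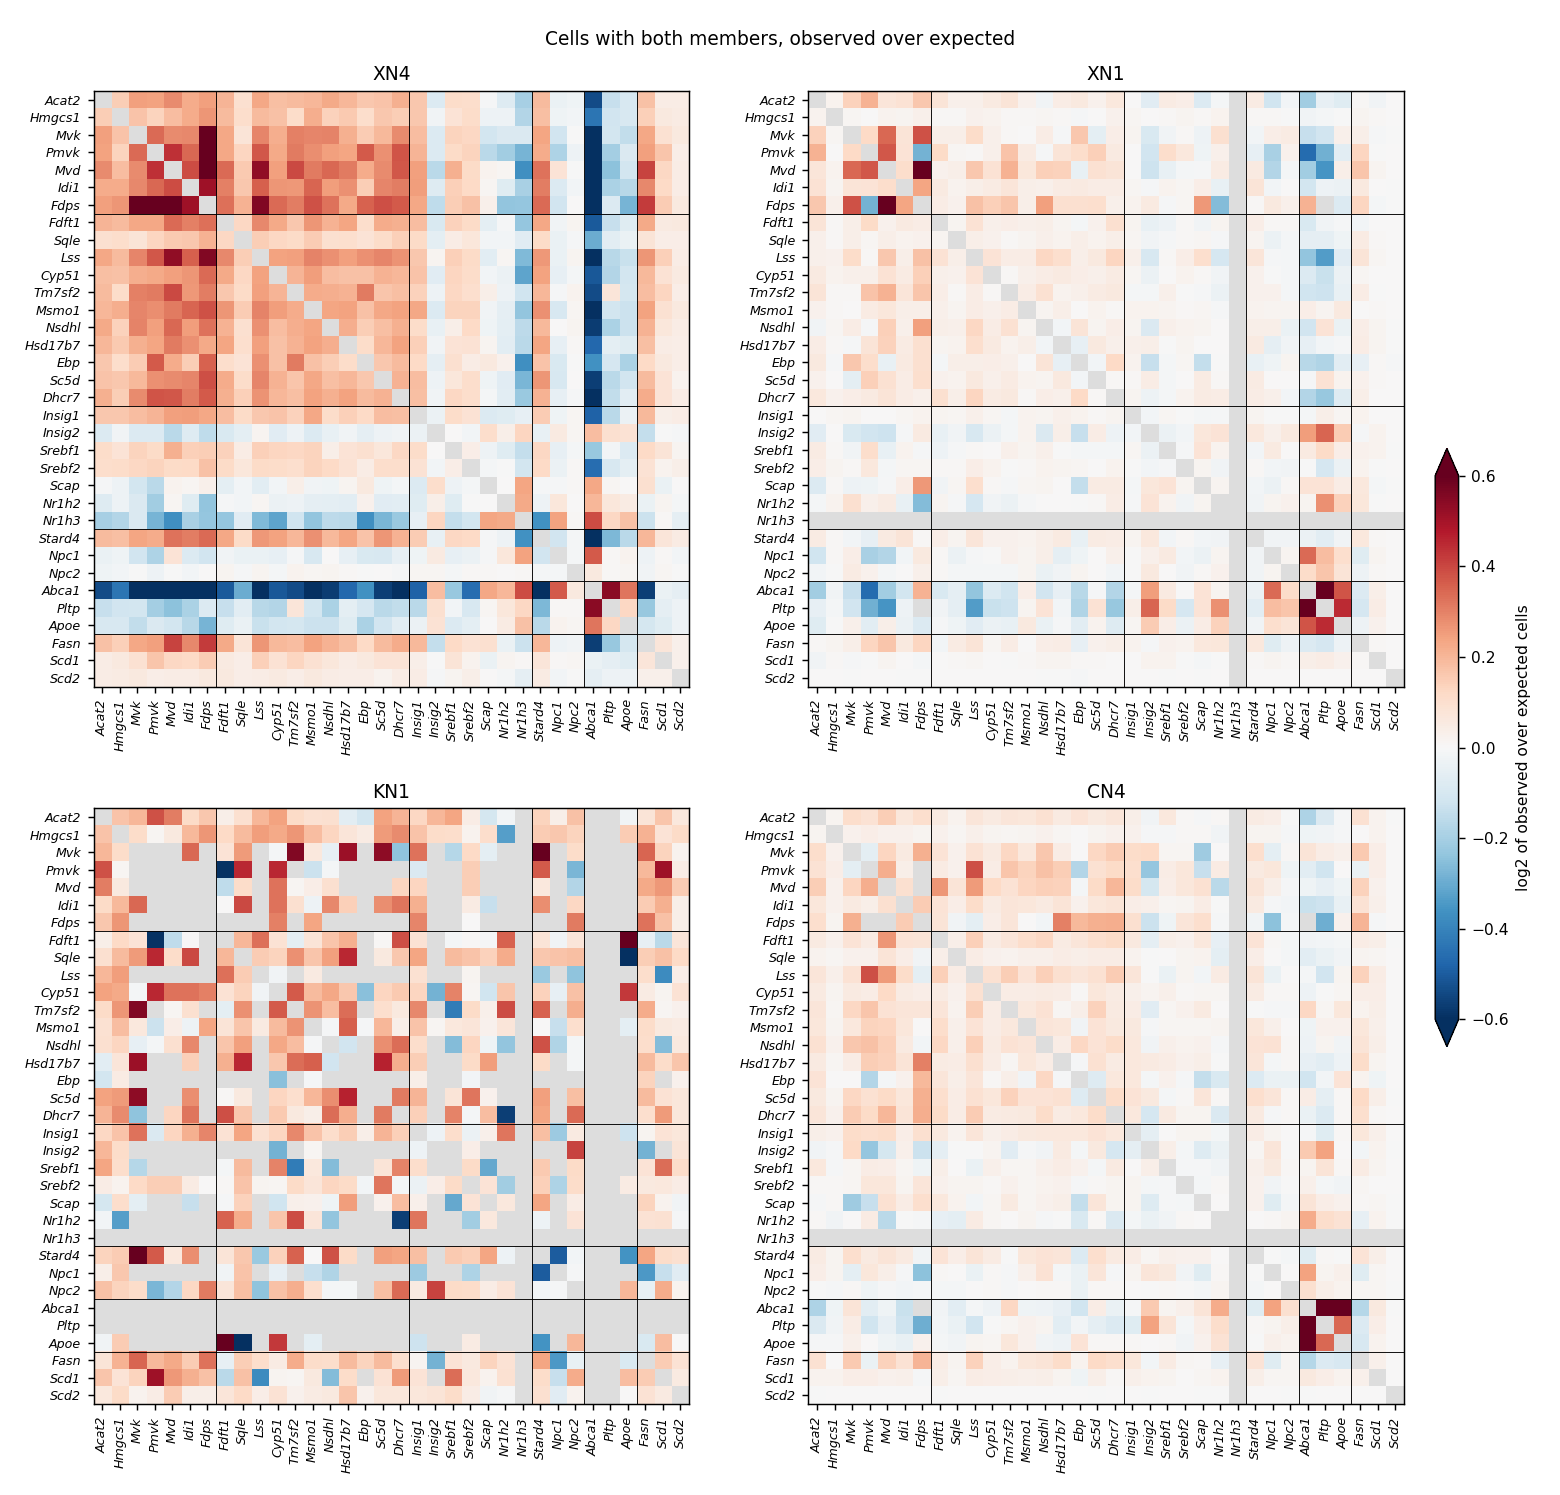
Observed over expected number of cells with both members, as log2 and color, for every pair of members in the 4 lines, ordered by role, with lines between the roles and grey for pairs expected in fewer than 20 cells or with a member captured in under 1% of the cells. The synthesis block in the upper left is red throughout in XN4 (ratios of 1.06 to 1.88), with *Stard4* and *Insig1* red and *Abca1* blue against it.

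With *Hmgcs1* as the reference in XN4, 16 of 17 synthesis genes had intervals above 1 (0.679% of all genes), with a median ratio of 1.118. Of 12520 genes ranked, 8 synthesis genes were among the first 100, with *Fdps* at rank 4 (1.203, interval 1.05 to 1.37), *Idi1* at 20 (1.17, 1.1 to 1.24) and *Msmo1* at 27 (1.16, 1.1 to 1.22). *Fdps* reached the ratio of 1.2 that counted as called, as 5 of the 12520 genes did (0.0399%). The cytosolic carrier *Stard4* ranked 58 (1.13, 1.07 to 1.2). In XN4 cells without *Mki67* or *Top2a* reads, which mark dividing cells, 8 of 17 synthesis genes were called (0.729% of all genes in the same cells), with a median of 1.19. The call of *Fdps* was lost over the tables of all reads and with *Sqle* in place of *Hmgcs1*, each with 0 of 17 genes called. In KN1, 3 of 17 were called (6.34% of all genes), and in XN1 and CN4 0 of 17 (0% of all genes in both), where the ratio has little room.

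Levels gave a wider view, and this comparison was added after seeing the data. Cells were ordered by their *Hmgcs1* reads within the strata, and the level of each gene in the 25% of cells with the most *Hmgcs1* was divided by that in the other cells, with *Hmgcs1* reads left out of the totals. In XN4 and KN1 this group also took in cells without an *Hmgcs1* read, 19 of 980 in XN4 and 234 of 1000 in KN1, where strata held too few cells with one. In XN4, all 16 synthesis genes with at least 10 rpm were at a ratio of 1.2 or more, as were 15.2% of 9700 genes. Their ratios ran from 1.60 to 2.56, with a median of 2.09, and 12 of the 16 were among the first 30 genes. *Mvd* (2.56) ranked 2, *Msmo1* (2.54) ranked 3 and *Lss* (2.47) ranked 5. *Msmo1*, for example, was at 355 rpm in the cells with the most *Hmgcs1* and 140 rpm in the others. Outside the pathway, 7 of 16 members were at 1.2 or more, namely *Stard4* (2.08), *Insig1* (1.77), *Scd2* (1.74), *Fasn* (1.71), *Srebf2* (1.51), *Scd1* (1.34) and *Srebf1* (1.28). At 0.833 (1 over 1.2) or less were 0 of the 16 synthesis genes and 4 of these 16 members. Over all members this is not above the 15.2% of all genes. The 4 were *Nr1h3* (0.720), *Pltp* (0.690), *Apoe* (0.688) and *Abca1*, described further on. *Npc1* (0.845) and *Insig2* (0.884) did not pass that limit, and their capture intervals included 1, as did that of *Pltp* (0.861, interval 0.734 to 1.003). *Pltp* was also low in those cells of CN4 (0.663, capture interval 0.680 to 0.968) and XN1 (0.740, 0.610 to 1.11). In CN4, 15 of 16 synthesis genes were at 1.2 or more (7.21% of all genes), with a median of 1.41, led by *Lss* (1.99, rank 6 of 9600). In XN1, 13 of 17 were (9.00%), with a median of 1.25. In KN1, 8 of 17 were (25.7%), with a median of 1.19, and 6 of the 17 were below 1. The number of synthesis genes whose capture interval in these cells lay above 1 was 16 of 16 in XN4 (6.07% of all genes), 12 of 16 in CN4 (2.51%), 9 of 17 in XN1 (1.81%) and 2 of 17 in KN1 (3.19%).

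**Figure D4:**
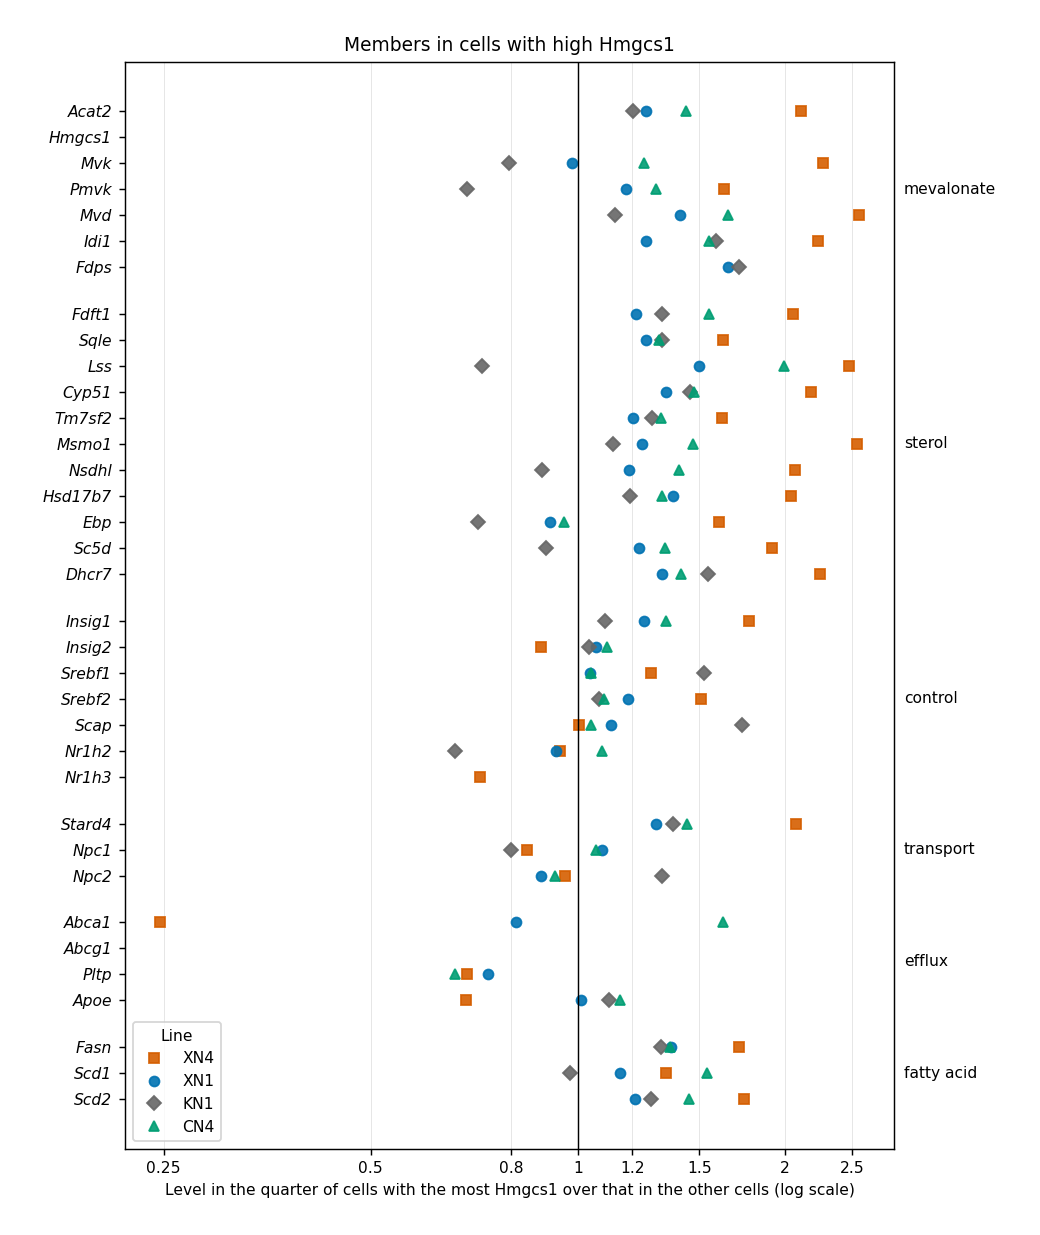
Level of each member in the 25% of cells with the most *Hmgcs1* reads over its level in the other cells of the same line, on a log axis, for members with at least 10 rpm. The synthesis genes of XN4 lie between 1.60 and 2.56, those of CN4 and XN1 mostly between 1.2 and 2, and *Abca1* of XN4 lies at 0.247.

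In this comparison of levels, added after seeing the data, *Abca1* moved in opposite directions against *Hmgcs1* in XN4 and CN4. In XN4, its level was 7.69 rpm in the cells with the most *Hmgcs1* and 31.1 rpm in the others (0.247, rank 9695 of 9700), and it was captured in 38 of those cells where 86.4 were expected (0.440, interval 0.311 to 0.604). In CN4, its level was 63.0 rpm and 38.8 rpm, respectively (1.62), and it was captured in 129 cells where 101.8 were expected (1.27, interval 1.06 to 1.51). XN1 lay between, at 94.2 rpm and 116 rpm (0.812), with a capture ratio whose interval included 1 (0.934, 0.820 to 1.06). The difference between lines was not tested, as each is 1 library.

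With *Abca1* as the reference, all 18 synthesis genes shared fewer cells with it than expected in XN4. Cells with *Abca1* numbered 346 in XN4, 1028 in XN1 and 408 in CN4, and the 27 of KN1 were too few to read. Of 33 members tested in XN4, 22 were at a ratio of 0.833 or less, as were 15.1% of all genes, and these were the 18 synthesis genes, *Stard4* (0.591), *Insig1* (0.713), *Srebf2* (0.728) and *Fasn* (0.676). The synthesis genes had a median of 0.675, from 0.342 for *Fdps*, whose count is uncertain, to 0.812 for *Sqle*. Every interval lay below 1 (6.69% of all genes). *Idi1* was found with *Abca1* in 89 XN4 cells where 165 were expected (0.540, interval 0.434 to 0.665) and *Lss* in 63 where 118 were expected (0.536, 0.412 to 0.686). In XN1, 1 of 32 members was at 0.833 or less, *Pmvk* (0.725), as were 11.4% of all genes, and in CN4 0 of 32 were, as were 17.7%. The synthesis genes had a median of 0.926 in XN1, with 4 of 18 intervals below 1 (9.11% of all genes) and 0 above (8.89%). In CN4 their median was 0.981 (0.879 to 1.09), with 0 of 18 intervals above 1 (10.2%) and 0 below (8.50%). The XN4 result was much the same in cells without *Mki67* or *Top2a* reads, with 21 members at 0.833 or less (13.1% of all genes).

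Members at 1.2 or more with *Abca1* numbered 4 of 33 in XN4 (15.5% of all genes), 3 of 32 in XN1 (9.82%) and 2 of 32 in CN4 (19.2%), which is not above the background in any of these lines. These members were *Pltp* and *Apoe* in all 3 lines, *Npc1* in XN4 and XN1 and *Nr1h3* in XN4. *Pltp* was at 1.70 in CN4 (interval 1.42 to 2.01), 1.58 in XN1 (1.28 to 1.93) and 1.46 in XN4 (1.22 to 1.72). *Apoe* was at 1.53 in CN4 (1.37 to 1.71), 1.30 in XN1 (1.21 to 1.39) and 1.25 in XN4 (1.09 to 1.42). *Npc1* was at 1.29 in XN4, 1.26 in XN1 and 1.18 in CN4, and *Nr1h3*, whose product activates *Abca1*, was at 1.31 in XN4 (1.02 to 1.66). In cells without *Mki67* or *Top2a* reads, members at 1.2 or more numbered only 1 of 33 in XN4 (13.4% of all genes). There were 3 of 32 in XN1 (7.44%) and 3 of 32 in CN4 (19.9%). Genes with the largest ratios to *Abca1* were not members. They were *Gda* (2.81) and *Gdpd1* (2.59) in XN4, *Gfap* (1.88), the intermediate filament gene of astrocytes, and *Pacsin1* (1.87) in XN1, and *Shisa9* (2.97) and *Scrg1* (2.55) in CN4.

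**Figure D5:**
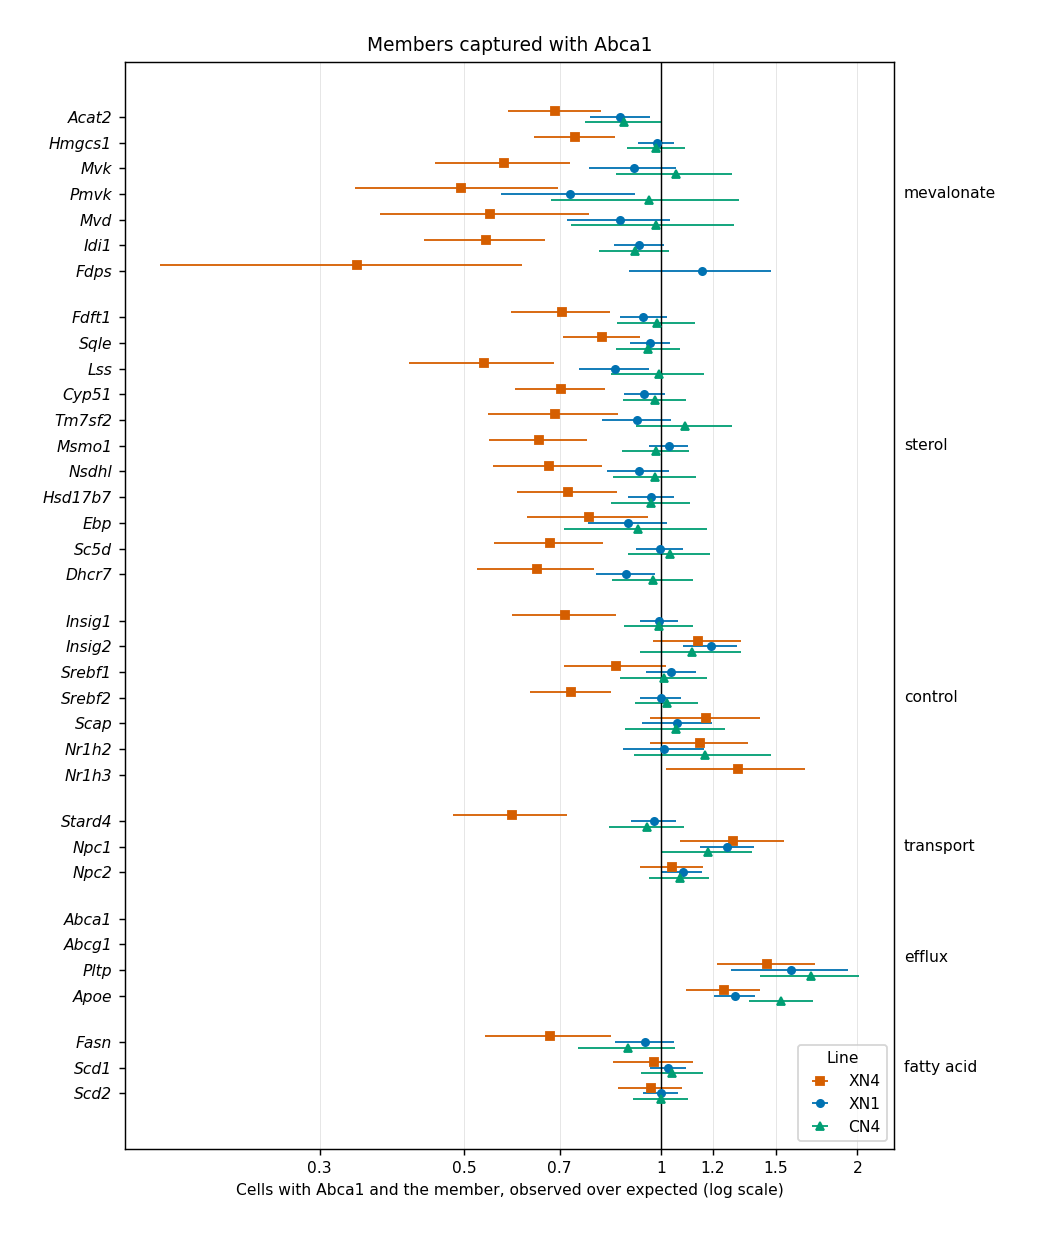
Number of cells with reads of *Abca1* and of each member over the number expected, on a log axis, in XN4, XN1 and CN4, with 95% exact Poisson intervals, for members expected in at least 20 cells. In XN4 every synthesis gene lies below 1 (0.342 to 0.812), whereas *Pltp* and *Apoe* lie above 1 in the 3 lines.

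*Abca1*, *Pltp* and *Apoe* were captured less often in dividing cells of XN4, XN1 and CN4, with every interval below 1. Cells with *Mki67* or *Top2a* reads made up 37.5% of XN4, 38.0% of XN1, 48.3% of KN1 and 70.8% of CN4. Members at 1.2 or more in them numbered 0 in each line, and 5.20%, 8.20%, 2.08% and 1.39% of all genes were in XN4, XN1, KN1 and CN4, respectively. With at least 2 reads 5 of 34 members were in XN4 (8.55% of all genes), and with at least 2 of 6 dividing markers 3 of 34 were (8.77%). Intervals lay above 1 for 15 of 34 members in XN4 and below 1 for 7 (7.45% and 7.64% of all genes), for 1 and 5 of 33 in XN1 (10.6% and 11.6%), for 0 and 0 of 31 in KN1 (2.38% and 0.767%) and for 0 and 3 of 33 in CN4 (3.72% and 1.55%). The synthesis genes had a median of 1.097 in XN4, with 11 of 18 intervals above 1, and of 1.00 to 1.01 in the other lines. *Abca1* was at 0.735 in CN4 (interval 0.640 to 0.840), 0.681 in XN1 (0.603 to 0.767) and 0.493 in XN4 (0.392 to 0.612), and was below 0.833 in each of these lines. Members at 0.833 or less numbered 2 in XN4 (6.76% of all genes), *Abca1* and *Nr1h3* (0.699). There were 4 in XN1 (10.3%), *Abca1*, *Pltp* (0.727), *Apoe* (0.815) and *Nr1h2* (0.832), 0 in KN1 (2.45%) and 1 in CN4 (1.52%), *Abca1*.

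Another 44 genes of lipid supply, listed apart from the members, gave the wider setting. Of the 41 listed in all lines, 11 differed by more than 4-fold with at least 50 rpm in the highest line, as did 16.6% of all genes listed in all lines. XN4 was highest for 7 of them and KN1 lowest for 7, compared with 559 and 720 of the 2059 genes in all that met this rule. Without XN4, 4 lipid genes met it (10.9% of all genes), and KN1 was lowest for 3 of them, compared with 563 of 1376 genes in all (40.9%). *Apod*, a lipocalin, was at 2990 rpm in XN4 and 0.617 to 5.93 rpm in the others, *Lpl*, lipoprotein lipase, at 1040 rpm and 28.4 to 87.0 rpm, and *Lrp1*, a lipoprotein receptor, at 401 rpm in XN4, 258 rpm in XN1, 21.7 rpm in KN1 and 133 rpm in CN4. *Mylip*, a liver X receptor target whose product degrades lipoprotein receptors, was at 81.6 rpm in XN4 and 1.81 to 4.51 rpm in the others. *Abca5*, *Lipa* and *Cyp7b1* were also highest in XN4 by level, whereas *Lipa* was highest in XN1 (28.5%, with 23.3% in XN4) by the share of thinned cells. The 2 genes highest in KN1 by level were *Acaca*, acetyl-CoA carboxylase, at 259 rpm and 53.2 to 131 rpm in the others, and *Lrp8*, the *Apoe* receptor of neurons, at 131 rpm and 14.8 to 81.3 rpm. By the share of thinned cells, *Acaca* was highest in XN4 (27.2%, with 22.6% in KN1) and *Lrp8* in CN4 (19.5%, with 11.7% in KN1). *Scarb1*, a lipoprotein receptor, was highest in XN1, at 178 rpm, and lowest in XN4, at 18.5 rpm. *Soat1*, which esterifies cholesterol for storage, was at 144 rpm in CN4 and 134 rpm in XN1, compared with 61.5 rpm in XN4 and 35.6 rpm in KN1.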

How the data were processed

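Single-cell RNA was measured in 4 NSC lines with 1 library each, so each sample is a group by its title. The tables of normalized values that the authors deposited for each line, made with Seurat 4.3.0, hold the natural log of 1 plus the reads of a gene per 10000 reads of the cell, for up to 4000 cells drawn at random and without ribosomal protein and mitochondrial genes. Dividing by the smallest step of a cell gave back its reads, of which 100% were whole within 0.01. For XN4, XN1 and CN4, the authors also deposited read counts for every cell and gene, which per the file headers came from the BD Rhapsody WTA pipeline (1.12.1) with GRCm38 (mm10) and GENCODE M19 and include intronic reads. For KN1 the study's methods name the same pipeline and genome, and its version, GENCODE release and intron setting are not given in the sources used here. The counts are reads, not molecular identifiers.

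From the recovered reads, levels (rpm, reads pooled over cells), shares of cells and observed over expected numbers of cells with 2 genes were computed with Python 3.11.15, numpy 2.4.6, scipy 1.17.1 and pandas 2.3.3. Intervals are exact at 95%, and those of levels count reads rather than molecules. Genes were called at a fold of 2 with at least 10 rpm, or at a ratio of 1.2 among genes captured in at least 1% of cells, over all genes. Doublets were not called. The procedures were tested on simulated data, and repeated under other scalings, filters, thresholds, strata and cells. Promoters came from RefSeq (GRCm38.p6). The members and lists were chosen with earlier results of these data known. All members are accounted for. Up to 4 per role with the largest fold have values in every line, as do other lipid genes past 4-fold with 50 rpm, and the first genes with *Abca1* are named. *Col3a1* and the pairs with extreme ratios were named after their values were seen. Some sterol genes are not reported here.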

Additional observations from a re-analysis of the deposited data

Results flagged for a closer look

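Members moved in opposite directions between lines in 2 cases, each with counting intervals on either side of 1 and neither tested, as each line is 1 library. The level of *Abca1* in the 25% of cells with the most *Hmgcs1* over that in the other cells was 1.62 in CN4 and 0.247 in XN4. *Cyp51* and *Apoe* were captured together in 945 XN4 cells where 1018 were expected (0.928, interval 0.870 to 0.989) and in 56 KN1 cells where 41.8 were expected (1.34, interval 1.01 to 1.74). In the other lines, the interval of this pair included 1, at 0.977 in XN1 and 1.01 in CN4. The first case was picked out of all members. With *Abca1* as the reference in CN4, 0 of 18 synthesis genes had an interval above 1 (10.2% of all genes). The second case rests on 56 cells of the line with the fewest genes per cell and was picked out of all pairs of members.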

How the results depend on the processing

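Each line was 1 library, so no library could be left out of a group. No paired analysis was possible because each line is 1 library and no result comes from a test. Of 308 repeats of the counts under other settings, 21 had little or no room to differ from 0 (20 of them with *Hmgcs1* in XN1 and CN4). In these, the largest ratio reckoned from the share of cells over the whole line was under the one called. Of the other 287, 208 planned and 10 added ones stayed within 1.5 times the reported count. XN1 over KN1, with 21 members higher and 0 lower, and the 23 members lowest in KN1 did not move by more than that under any setting run. The latter ranged from 18 to 32. The 27 *Abca1* cells of KN1 were too few to read, and the high share of *Hmgcs1* cells limited capture ratios in XN1 and CN4. The causes of the changes given next were not tested. Percentages in brackets are the share of all genes under the same setting.

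For members past 2-fold, shares of cells after thinning gave 28 (62.3%) members higher in CN4 than KN1 and 0 (4.65%) lower, 23 (55.6%) higher in XN4 than KN1 and 0 (8.32%) lower, and 1 (7.20%) higher in XN1 than CN4. The same shares with median-of-ratios scaling, added after seeing the data, gave 1 (7.97%) higher in XN1 than CN4, 6 (18.7%) higher in XN4 than KN1, 5 (13.4%) lower in XN4 than XN1 and 1 (13.6%) lower in XN4 than CN4. A minimum of 50 rpm left 0 (21.7%) members lower in CN4 than KN1, 0 (16.3%) higher in XN4 than XN1 and 0 (16.0%) higher in XN4 than CN4, and no minimum gave 2 (17.7%) of the last. A fold of 1.5 gave 8 (14.9%) members higher and 2 (18.5%) lower in XN1 than CN4, 19 (21.1%) lower in XN4 than XN1, 2 (29.2%) lower in XN4 than KN1, and 3 (25.5%) higher and 12 (24.8%) lower in XN4 than CN4.

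For synthesis genes captured with *Hmgcs1* at 1.2 or more, XN4 had 7 (0.271%) with at least 2 reads, 0 (0%) over the tables of all reads, 13 (1.70%) at a ratio of 1.1, 0 (0%) at 1.5, 0 (0.0160%) with *Sqle* and 11 (0.815%) with *Idi1* in place of *Hmgcs1*, and 8 (0.729%) in cells without *Mki67* or *Top2a* reads. KN1 had 7 (12.5%) with strata of total reads, 6 (10.7%) with 5 strata, 1 (5.399%) with 50 strata, 7 (9.76%) with at least 2 reads, 10 (21.7%) at a ratio of 1.1, 0 (0.129%) at 1.5, 8 (22.0%) with *Idi1*, and 7 (16.5%) in cells without *Mki67* or *Top2a* reads. Levels in the 25% of cells with the most *Hmgcs1* gave 16 (15.2%) in XN4, 15 (7.21%) in CN4, 13 (9.00%) in XN1 and 8 (25.7%) in KN1.

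For members captured with *Abca1* at 1.2 or more, at least 2 reads gave 6 (22.4%) in XN1 and 6 (26.96%) in CN4, a ratio of 1.1 gave 7 (26.9%) in XN4, 5 (21.9%) in XN1 and 5 (30.4%) in CN4, a ratio of 1.5 gave 0 (4.63%) in XN4 and 1 (1.09%) in XN1, and cells without *Mki67* or *Top2a* reads gave 1 (13.4%) in XN4. For those at 0.833 or less, at least 2 reads gave 12 (27.3%) in XN1 and 4 (33.2%) in CN4, the inverse of 1.1 gave 7 (23.0%) in XN1 and 2 (29.6%) in CN4, the inverse of 1.5 gave 9 (5.62%) in XN4 and 0 (2.72%) in XN1, and cells without *Mki67* or *Top2a* reads gave 3 (9.04%) in XN1 and 1 (20.8%) in CN4. In XN4 the other settings kept the 22 within 1.5 times.

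For members in dividing cells at 1.2 or more, at least 2 reads gave 5 (8.55%) in XN4 and 1 (15.8%) in XN1, a ratio of 1.1 gave 12 (12.5%) in XN4, 1 (17.1%) in XN1 and 1 (9.26%) in KN1, and at least 2 of 6 dividing markers gave 3 (8.77%) in XN4. For those at 0.833 or less, at least 2 reads gave 5 (12.8%) in XN4, 8 (22.4%) in XN1 and 3 (6.24%) in CN4, the inverse of 1.1 gave 6 (16.9%) in XN4 and 2 (7.17%) in CN4, the inverse of 1.5 gave 1 (0.839%) in XN4, 0 (1.58%) in XN1 and 0 (0.0248%) in CN4, and at least 2 of 6 markers gave 1 (5.61%) in KN1.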

Other observations

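Among the other lipid genes, *Lrp1* was captured in 78.1% of XN4 cells and 3.04% of KN1 cells and *Lipa*, the lysosomal lipase that frees cholesterol from its esters, in 38.5% and 1.96%, whereas *Scarb1* was captured in 48.3% of XN1 cells and 9.04% of XN4 cells.

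With *Abca1*, the genes of the largest ratios differed between lines: *Ano3* (2.58), *Ahnak2* (2.55) and *Pla2g7* (2.51) followed in XN4, *Fbxo32* (1.86), *St3gal6* (1.81) and *Capn1* (1.80) in XN1, and *Tifa* (2.55), *Ppp2r2c* (2.47) and *Brinp1* (2.43) in CN4.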
